A study of Mus musculus with 4 samples.

Results

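The 9 genes described here are Gnat1, Pde6a, Pde6b, Sag, Pdc, Rcvrn, Prph2, Rom1 and Nrl. They were taken as every probe set whose platform annotation gave exactly 1 gene symbol, that symbol being 1 of the 9. This gave 9 genes of 18193 with such a probe set, and 9 probe sets of 45101, 1 for each gene, so no member has a second probe set to set beside the first.

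Rod photoreceptors turn light into a change of membrane current through a chain of proteins packed into the discs of the outer segment. Excited visual pigment activates the G protein transducin, transducin releases the inhibition of a cyclic GMP phosphodiesterase, and the fall in cyclic GMP closes cation channels in the plasma membrane. Arrestin, phosducin and recoverin act on the shut-off and adaptation of that chain, tetraspanins shape the disc rim, and a leucine zipper transcription factor sets the rod fate. In a whole retina rods are the most numerous neurons, and transcripts of these proteins are among its abundant messages.

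The arrays come from eye tissue that the labels name retina, from control mice and from transgenic mice with myocilin, a secreted glycoprotein of the eye, in the aqueous humor. The labels ask about an effect of high myocilin around the retina. There are 2 control arrays and 2 transgenic arrays. By the labels, control 2 is a technical repeat of control 1, and controls count as 1 sample. Whether the transgenic arrays are of different animals is not given in the sources used here, and the p-values measure only a spread that may be technical. Below, the control pair and the transgenic pair are given in the order of their array numbers. The labels do not say that these numbers pair arrays across the groups. The strain, the age, the promoter of the transgene and any pooling of animals are not given in the sources used here.

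Values are signal intensities as deposited, in arbitrary units on a linear scale. The mean of each array after trimming 2% of its probe sets at each end was 150 on all 4 arrays, and levels are given against it. Median signals of the arrays ran from 47.1 to 50.3. Changes are differences in log2(signal + 16), transgenic minus control, a scale that shrinks the changes of dim signals. A change compares means of 2 arrays, while a difference within a group compares single arrays. These are unlike measures, and at the levels of the members the second has the wider spread over all probe sets. The level at which a probe set reports a transcript depends on its sequence, so the genes are not ranked against each other by brightness. With 4 arrays, precision is limited by their number.

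All 9 rod genes lay below the trimmed mean on all 4 arrays. Of all probe sets other than array controls 23.7% lay above it on every array, and the share below it on every array is not given here. With array medians of 47.1 to 50.3, most probe sets of each array lie below 150. The lowest signal of the rod genes was 0.994 and the highest 148. Their summed signal was 337 and 352 in the control pair and 352 and 277 in the transgenic pair, of which Sag alone made up 38.3% to 43.9%. The second transgenic array had the lowest sum and the other 3 arrays lay close together. In bulk tissue, the number of rods in the sample, for whatever reason, and the amount of message in each rod cannot be told apart.

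The label retina was set beside markers of retinal neurons and of neighbouring tissues, each gene read by its brightest probe set. The lists were chosen with earlier results of these data known, so the counts describe the arrays and are not an independent check. Of 6 bipolar markers with a probe set 1 exceeded the trimmed mean on all arrays, Trpm1, which pigment cells also express, and of 8 amacrine and ganglion cell markers 2 did. All 5 markers of corneal and surface epithelium, all 6 of skeletal muscle, all 6 of stroma and sclera and 9 of 11 of pigment epithelium and melanocytes exceeded it. Of the Mueller glia markers, several of which other tissues share, 4 of 6 did. Lens markers did for 1 of 7. With the 9 rod genes below that level and Sag and Rom1 above 71.3% and 59.2% of all probe sets by mean signal, the tissue is called here by its label only. These markers do not bear out retina as the main tissue.

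**Figure D1:**
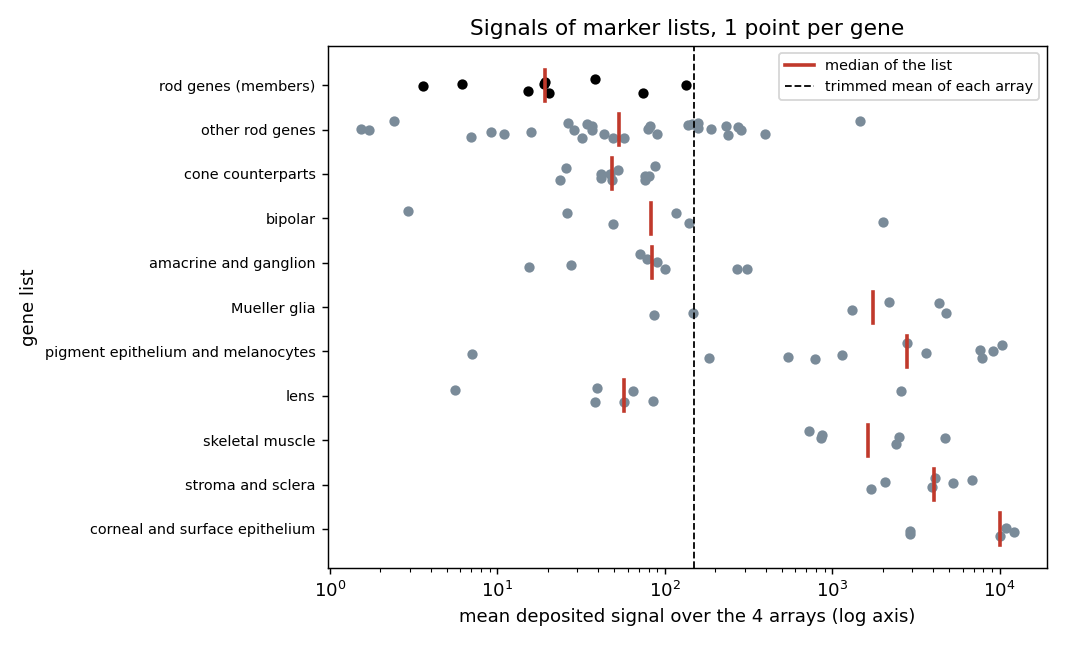
Mean signal over the 4 arrays on a log axis, 1 point for each gene by its brightest probe set, for the 9 rod genes (black) and 10 other lists, with the median of each list as a red bar and the trimmed mean of 150 as a dashed line. All 9 rod genes lie left of the dashed line, as do 6 of 7 lens genes, while all genes of the corneal, stromal and muscle lists lie right of it; members have 1 probe set each, other genes up to several, so lists are not ranked.

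As a measured level of genes that the eye is not known for, 43 probe sets of olfactory receptors, the odour receptors of the nose, were read on the same arrays. Their median signal ran from 9.33 to 14.0 and their 95th percentile from 30.4 to 39.8. On the control arrays 4 and 2 of the 9 rod genes exceeded that percentile, and on the transgenic arrays 3 and 2 did. Only Sag and Rom1 exceeded it on all 4 arrays. The signals of the other 7 genes therefore reached into the range of these receptors on at least 1 array. The 7 differed in this. By mean signal over the arrays Pdc exceeded 100% of the receptor probe sets, and Gnat1, Pde6a and Nrl each exceeded 67.4%. Rcvrn exceeded 53.5%, Prph2 25.6% and Pde6b 16.3%. The table used here carries no detection calls, so no signal is called absent.

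**Figure D2:**
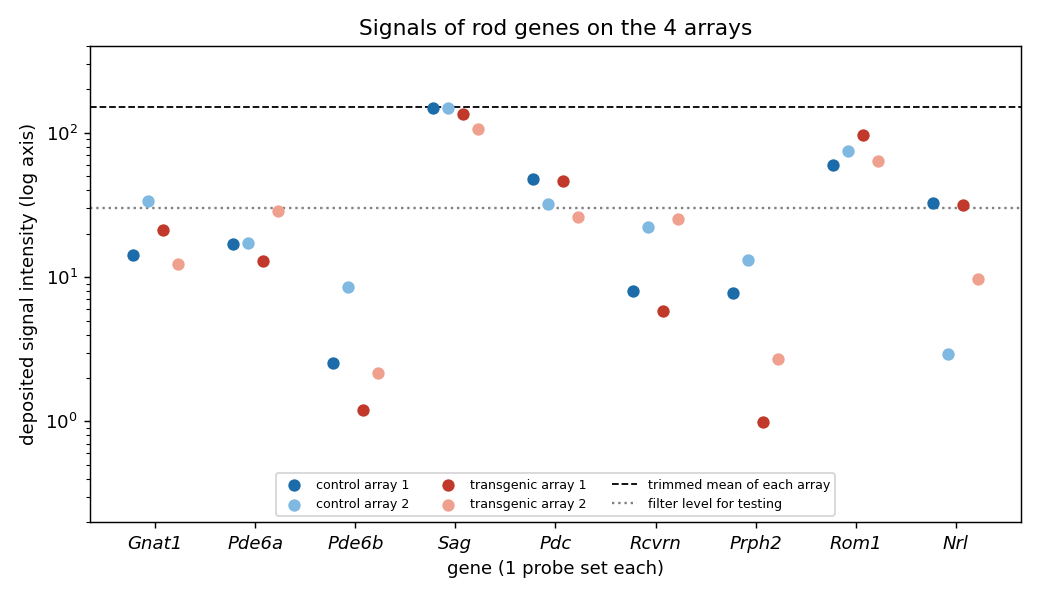
Signal intensity on a log axis of the 9 rod genes, 1 point for each of the 4 arrays, with the trimmed mean of 150 as a dashed line and the filter level of 30.0 as a dotted line. No point lies above the dashed line, Sag comes nearest to it with signals up to 148, and the points of Nrl, Pde6b and Rcvrn spread widely within a group.

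The members of the activating arm of the cascade are Gnat1, Pde6a and Pde6b. Gnat1, which encodes the alpha subunit of rod transducin, had signals of 14.3 and 33.5 in the control pair and 21.3 and 12.4 in the transgenic pair. The technical control arrays enclosed the first transgenic array, so the groups overlapped. Its change of −0.25 was smaller than the difference of 0.71 between the technical control arrays.

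Pde6a, the alpha catalytic subunit of the rod phosphodiesterase, had signals of 16.8 and 17.3 in the control pair and 13.01 and 28.8 in the transgenic pair. One transgenic array lay below and the other above the control arrays, which were close to each other. Its change was 0.12, against a difference of 0.63 between the transgenic arrays.

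Pde6b, the beta catalytic subunit and partner of Pde6a, had signals of 2.53 and 8.53 in the control pair and 1.20 and 2.18 in the transgenic pair. Both transgenic arrays lay below both control arrays. The change of −0.27 was smaller than the difference of 0.41 between the technical control arrays, and it was −1.13 with a pseudocount of 1 and −0.08 with 64. Its mean signal of 3.61 exceeded that of 16.3% of the olfactory receptor probe sets, and its groups were separated only within that dim range.

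The genes of shut-off and adaptation included the member nearest to the trimmed mean. Sag, the rod arrestin that caps phosphorylated visual pigment, had signals of 148 and 148 in the control pair and 135 and 106 in the transgenic pair. Relative to the trimmed mean these were 0.987 and 0.986 in control and 0.899 and 0.707 in transgenic arrays. Both transgenic arrays were lower, and they differed from each other by 1.27-fold while the technical control arrays differed by 1.00-fold.

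The change of Sag was −0.27 ± 0.22 (log2, SE), with a 95% interval from −0.75 to 0.21 in limma. It did not pass the threshold of 0.05 (limma adjusted p = 0.882). With the first transgenic array alone the difference from control was −0.12, and with the second alone −0.43.

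Pdc encodes phosducin, which binds the beta and gamma subunits of transducin. Its signals were 47.6 and 31.9 in the control pair and 46.7 and 26.3 in the transgenic pair. In each group 1 array was high and 1 low, and the groups overlapped. The change was −0.10 ± 0.38 (log2, SE), with a 95% interval from −0.93 to 0.72 and a limma adjusted p of 0.989.

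Rcvrn encodes recoverin, a calcium sensor that restrains the kinase of visual pigment. Its signals were 7.97 and 22.2 in the control pair and 5.78 and 25.2 in the transgenic pair. The low and the high array differed by 2.79-fold among the technical control replicates and by 4.36-fold among the transgenic arrays. Its change of −0.02 was the smallest of the 9.

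The tetraspanins of the disc rim, which bind each other in the rod, gave values on opposite sides of 0. The sign of Rom1 was not settled, as it ran from −0.06 to 0.44 when single arrays were left out. Rom1 had signals of 60.02 and 74.8 in the control pair and 96.7 and 63.8 in the transgenic pair. The second transgenic array lay between the control arrays, so the groups overlapped. The change was 0.19 ± 0.29 (log2, SE), with a 95% interval from −0.44 to 0.82 and a limma adjusted p of 0.959.

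Prph2, which encodes peripherin 2, had signals of 7.80 and 13.2 in the control pair and 0.994 and 2.70 in the transgenic pair. Both transgenic arrays lay below both control arrays, and this was the single member whose change exceeded the difference within either group. The share of all probe sets for which this holds is not given here. The change of Prph2 was −0.56, against 0.29 between the technical control arrays and 0.14 between the transgenic arrays. It was 2.52 times the SD of the change over the 4504 probe sets in the same level class, where the probe sets are cut into 10 classes of equal size by mean level. That ratio depends on where the classes are cut, since Prph2 lay near the upper edge of the dimmest class. The SD of the change was 0.22 in that class and 0.41 in the next.

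The probe set of Prph2 lay under the filter on dim signals and so had no test in the fit of the tested probe sets. Fitted without the filter, the change had an SE of 0.23, an unadjusted p of 0.0545 and a limma adjusted p of 0.999. Its size depended on the pseudocount, at −2.04 with a pseudocount of 1 and −0.18 with 64. The mean signal of 6.17 exceeded that of 25.6% of the olfactory receptor probe sets and of 9.74% of all probe sets.

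Nrl, the leucine zipper factor that directs rod fate and rod gene transcription, had signals of 32.4 and 2.92 in the control pair and 31.4 and 9.69 in the transgenic pair. In each group 1 array was high and 1 low, and the low control signal lay under the olfactory receptor median of 10.9 on its array. Its change of 0.21 was well inside the differences of −1.36 between the control arrays and −0.88 between the transgenic arrays.

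**Figure D3:**
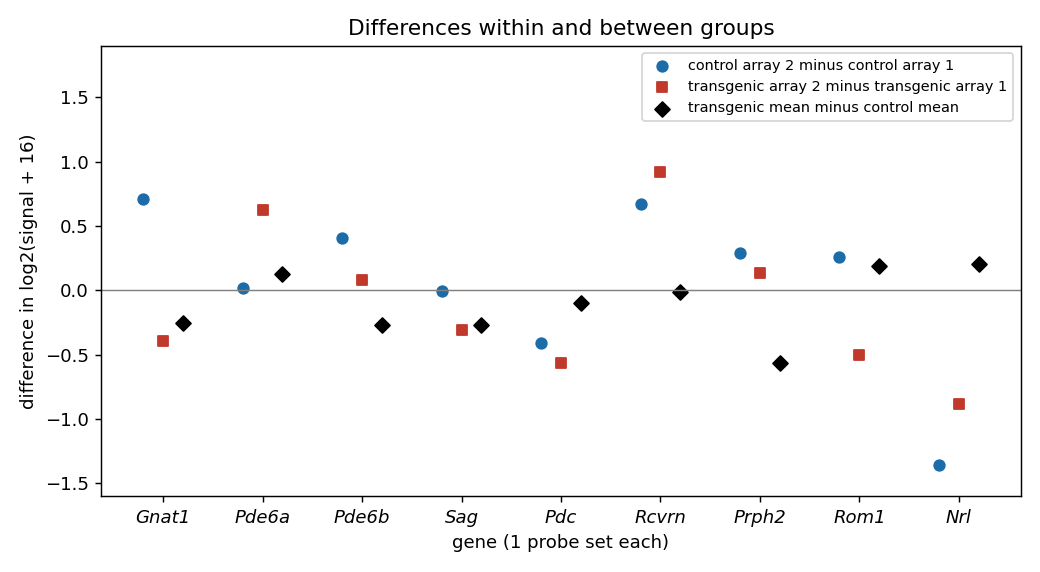
Differences in log2(signal + 16) for the 9 rod genes, with circles for control array 2 minus 1, squares for transgenic array 2 minus 1 and diamonds for the transgenic minus the control mean. Only for Prph2, at −0.56, does the diamond lie farther from 0 than both other points. Diamonds are differences of means and the other points differences of single arrays, which are unlike measures. Nrl has the widest difference within a group.

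Of the 9 rod genes, 3 had a mean level above the filter at the 40th percentile, a signal of about 30.0 exceeded by 60% of all probe sets, and were tested, namely Sag, Pdc and Rom1. None passed in limma (0 of 3), where 0.0777% of the 27022 probe sets tested did. At an unadjusted p under 0.05 the count was also 0 of 3, against 7.06% of the probe sets tested. The other 6, Gnat1, Pde6a, Pde6b, Rcvrn, Prph2 and Nrl, are given as values with no test.

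Over all 9 genes without the filter, 6 changes were below 0 and 3 above, with a median of −0.10 against −0.01 for all probe sets. After centring the arrays on their medians 5 were below 0 and 4 above, since Rcvrn moved from −0.02 to 0.02. With the first transgenic array alone the median was −0.12 and with the second −0.24. For 5 of the 9 genes the transgenic arrays lay on opposite sides of the control mean. Both transgenic arrays lay below both control arrays for 3 genes, Pde6b, Sag and Prph2, and above them for none (0 of 9). Over all probe sets other than array controls these shares were 20.9% and 19.4%. With 9 members, 1 or 2 genes decide whether the share lies near that background.

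Technical spread depended on the level, and 6 of the 9 genes lay where it was wide or the signal at the floor. The SD of the log2 difference between the technical control arrays was 0.61 over the level class that holds Pde6a, Rcvrn and Nrl, and 0.52 over that of Gnat1. It fell to 0.44 for the class of Pdc, 0.36 for Rom1 and 0.24 for Sag. In the dimmest class, with Pde6b and Prph2, it was 0.32, on a scale where the pseudocount of 16 exceeds the signals. The difference between the transgenic arrays, at 0.26 to 0.65 over the same classes, had a spread close to that of the technical replicates. The changes of most members were smaller than this spread. A change is a difference of means, and its SD over the same classes was narrower, at 0.22 to 0.45.

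**Figure D4:**
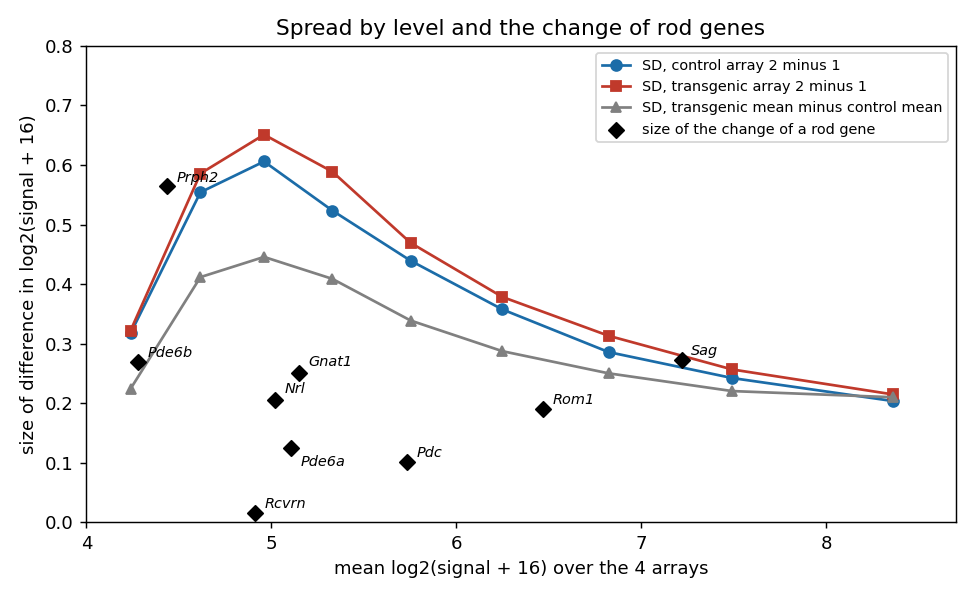
Size of differences in log2(signal + 16) against the mean level over the 4 arrays, with lines for the SD over probe sets in each of the 9 dimmest level classes (control array 2 minus 1, transgenic array 2 minus 1, transgenic minus control mean) and diamonds for the change of each rod gene. Only Prph2 at 0.56, Pde6b at 0.27 and Sag at 0.27 lie above the grey line for the SD of the change.

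Other genes of the rod were read from a list of 33, of which 30 had a probe set and 20 were tested, each by its brightest probe set. None passed in limma in either direction (0 of 20), and 1 had an unadjusted p under 0.05, against 7.06% of all probe sets tested. The median change over the 30 was 0.14, with 23 above 0 and 7 below. Both transgenic arrays lay above both control arrays for 6 of the 30 and below for 2. Over all single probe sets other than array controls these shares were 19.4% and 20.9%.

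The rod genes that exceeded the trimmed mean on all 4 arrays were 7 of 30, each read by its brightest probe set. The share of 23.7% is over single probe sets, so it is an unlike measure, and reading the brightest of several raises a share. Most of the 7 are known to be expressed in other tissues too. Gnb1, the beta subunit of rod transducin and of many other G proteins, had a mean signal of 1464. Otx2, a homeobox gene of photoreceptors and pigment epithelium, had 394. Mef2c with 285, Gnb5 with 274, Abca4 with 237, Unc119 with 230 and Guca1a with 188 were the others. Abca4, a retinoid flippase of photoreceptor discs, and Guca1a, an activator of the photoreceptor guanylate cyclase, are the ones of this group tied most closely to photoreceptors.

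Partners of the members in the same complexes were read too. Gngt1, the gamma subunit of rod transducin, had signals of 67.1 and 51.7 in the control pair and 103.7 and 95.8 in the transgenic pair, which did not overlap. Its change was 0.63 ± 0.25 (log2, SE; limma adjusted p = 0.633), the single unadjusted p under 0.05 in the list at 0.0268. Of the other 3 probe sets of Gngt1, 2 were higher at 0.64 and 0.48 and 1 was lower at −0.18. Pde6g, the inhibitory subunit of the phosphodiesterase, stood at −0.15 ± 0.37 with signals from 27.6 to 38.2, and its second probe set, under the filter, at 0.32. Gnat1 and Gngt1, which belong to the same heterotrimer, gave values of opposite sign, but Gngt1 did not pass and Gnat1 was not tested. Gnat1 also took both signs when single arrays were left out, from −0.61 to 0.10, so no contrast is read from them.

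Crx, a homeobox factor that acts with Nrl on photoreceptor promoters, had signals of 51.4 and 66.2 in the control pair and 23.6 and 32.4 in the transgenic pair. Its change of −0.76 ± 0.36 (log2, SE; limma adjusted p = 0.721) did not pass, and its second probe set stood at 0.22. Neurod1, a basic helix-loop-helix factor of photoreceptors and amacrine cells, stood at −0.61 ± 0.41 (limma adjusted p = 0.844) and at −0.22 on its second probe set. Rdh12, a retinol dehydrogenase of the photoreceptor inner segment, lay under the filter with a change of 0.61, against −0.01 on its second probe set, and had signals of 11.6 and 24.3 in control and 33.5 and 36.0 in transgenic arrays. Grk1, the kinase of rod pigment that recoverin restrains, had signals from 1.58 to 2.95.

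Cone counterparts of the members also lay below the trimmed mean. Of 13 listed, 11 had a probe set and 9 were tested. None passed in limma (0 of 9) and 1 had an unadjusted p under 0.05, against 7.06% of all probe sets tested. None exceeded the trimmed mean on all arrays (0 of 11), with mean signals from 23.5 to 87.4. The median change was −0.24, with 8 below 0 and 3 above. Arr3, the cone arrestin, had signals of 73.8 and 58.3 in the control pair and 28.4 and 33.6 in the transgenic pair. Its change was −0.80 ± 0.34 (log2, SE; limma adjusted p = 0.665), and its other probe sets stood at 0.04 and −0.04. On these probe sets both arrestin genes had both transgenic arrays below both control arrays, as did 20.9% of all probe sets other than array controls. Neither passed the test. In the cone list 2 of 11 genes had this order, Arr3 and Cngb3.

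Cone transducin and phosphodiesterase overlapped between the groups, as Gnat1 and Pde6a did and Pde6b did not. Gnat2, the cone transducin alpha subunit, stood at −0.03 ± 0.28 with signals from 62.8 to 87.7. Pde6c, the cone phosphodiesterase, stood at −0.44 ± 0.61, with signals of 35.2 and 54.3 in control and 69.9 and 6.77 in transgenic arrays. Rxrg, a nuclear receptor of cones, at 0.56 and Opn1mw, a cone pigment, at −0.54 lay under the filter, and on both the transgenic arrays differed from each other by more than the change.

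The summed signals of some of these lists moved with the group. For the counts below, 0.0777% of all probe sets tested passed the threshold in limma, and 7.06% had an unadjusted p under 0.05. For pigment epithelium and melanocytes the sums were 39320 and 39466 in the control pair and 46694 and 50838 in the transgenic pair, with 2 of 10 tested genes past the threshold. For skeletal muscle they were 8843 and 9375 against 14930 and 15177 (2 of 6 past the threshold), and for stroma and sclera 21245 and 20149 against 27065 and 27243 (1 of 6). For lens they were 2448 and 2372 against 3300 and 3282, a sum that is mostly Cryab, with 3 of 5 tested genes past the threshold and a median change of 1.61 over 7 genes. Bipolar markers summed to 2355 and 2212 against 2451 and 2324, a sum that is mostly Trpm1, while their median change was −0.38 with 4 of 6 below 0 and 0 of 4 tested past the threshold in limma, as at an unadjusted p under 0.05. The amacrine and ganglion markers summed to 1040 and 1024 against 941 and 831. Of 6 tested genes 0 passed the threshold, and 1, Gad1, had an unadjusted p under 0.05 in limma. Gad1 had signals of 125 and 112 in the control pair and 64.9 and 55.2 in the transgenic pair. Its change was −0.82 ± 0.26 (log2, SE), with a limma adjusted p of 0.484. The changes of the amacrine and ganglion markers were below 0 for 6 and above for 2. The 2 markers above the trimmed mean, Slc6a9 and Rbpms, stood at 0.08 and −0.38. Mueller glia markers summed to 11944 and 12378 against 13332 and 13658, with 5 changes above 0 and 1 below. Of 6 tested, 0 passed the threshold and 2 had an unadjusted p under 0.05 in limma. For corneal and surface epithelium the sums were 37842 and 37599 against 38800 and 41500, with 0 of 5 tested genes past the threshold. The retinal lists thus did not all move in the same direction. The part of these shifts in the values of the rod genes was not tested.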

How the data were processed

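RNA was read on 4 Affymetrix arrays of 1 colour, taken as 1 control and 2 transgenic samples. The authors deposited 1 linear signal intensity per probe set and array; the sources used here name no software for these intensities. The members and lists were chosen with earlier results of these data known; the olfactory receptor probe sets were added after the values were seen. Names come from the platform annotation. After leaving out 64 array controls, log2(intensity + 16) was computed, control arrays were averaged, and 27022 probe sets above the 40th percentile of mean level were fitted with limma 3.58.1 in R 4.3.3 (eBayes along the intensity trend, two-sided, Benjamini-Hochberg adjustment over all of them, threshold 0.05). With 1 residual and 10.3 prior degrees of freedom, the single control is assumed to vary like the transgenic samples. Tested on simulated data, its calls held more false ones than the nominal share. The simulated control had the spread of a single transgenic array, while the control in the data is a mean of 2 arrays. All members are named; from other lists, genes above the trimmed mean and up to 4 with the largest change could be named, and Pde6g, Grk1 and Gnat2 were added as partners after their values were seen. No genome build is named, so no positions are given.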

Additional observations from a re-analysis of the deposited data

How the results depend on the processing

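The count of tested rod genes past the threshold in limma was 0 in the 12 alternatives with a test, while the count over all probe sets ran from 0, without the filter or without the trend, to 1740. With the replicate number as a block, an alternative in which control replicates count as separate samples, 1740 probe sets passed against 135 without the block; Sag stood at −0.27 with adjusted p = 0.402 with the replicate block and 0.510 without it. The labels do not say that the numbers pair arrays, and over the tested probe sets the differences between replicate 2 and replicate 1 of both groups correlated at 0.0955. Of the 9 members, 3 were higher on replicate 1 in both groups and 4 on replicate 2. Over the 45037 probe sets other than array controls, 11272 and 12782 were. Whether the numbers mark a shared batch was not tested. The median change of the 9 genes, −0.10, ran from −0.27 to −0.067 when single arrays were left out. Over the 4 arrays left out in turn, 6 of the 9 genes took both signs (Gnat1, Pde6a, Pdc, Rcvrn, Rom1 and Nrl, the last from −0.47 to 0.88), and the 3 whose groups do not overlap cannot. Among the tested ones Pdc, at −0.10, turned to 0.10 without control replicate 1, and ran from −0.39 to 0.18; the cause was not tested. The number of rod genes above the reference level on all 4 arrays was 0 with the mean trimmed by 2%, 1 with a trim of 10% and 2 with the median. Each gene has 1 probe set, so the mean over probe sets and the other probe sets were not run. Leaving out a transgenic array left no residual degrees of freedom and so no test. Signals near the floor limit 6 of the 9 genes.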
